A study of Mus musculus with 8 samples.

Results

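The 7 genes described here encode the core of the switch that phosphorylates and dephosphorylates the translation initiation factor eIF2: the 4 eIF2alpha kinases Eif2ak1 (HRI), Eif2ak2 (PKR), Eif2ak3 (PERK) and Eif2ak4 (GCN2), the substrate Eif2s1 (eIF2alpha), the exchange factor subunit Eif2b5 (eIF2B epsilon) and the phosphatase targeting subunit Ppp1r15b (CReP). They were chosen by gene symbol, and all 7 were present among the 32285 genes of the deposited matrices. Nuclear RNA was profiled nucleus by nucleus in the hearts of 4 wild-type (WT) and 4 Tafazzin-knockout (Taz-KO) male mice, all 9 weeks old, with 1 library per mouse and no other agent or allele given in either group. Tafazzin remodels cardiolipin in the inner mitochondrial membrane, its loss causes Barth Syndrome, and the construct of the knockout allele is not given in the sources used here. The question was which of the 4 sensors each cardiac cell type transcribes, and whether the transcripts of the switch differed between WT and Taz-KO mice.

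All 4 kinases phosphorylate the same serine of eIF2alpha, and each is held in check until its own kind of stress arises: heme shortage and mitochondrial stress relayed by Dele1 for HRI, double-stranded RNA for PKR, unfolded protein in the endoplasmic reticulum for PERK and uncharged transfer RNA for GCN2. Phosphorylated eIF2 binds and blocks eIF2B, the factor that reloads eIF2 with GTP, so that bulk translation slows while a few messages such as Atf4 are translated more. Phosphatase complexes targeted by CReP, or by the inducible Gadd34 (Ppp1r15a), reverse the mark. The kinases are controlled mainly through their activity, and transcript counts report only how much of each message was present, not how active the protein is.

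The 7 genes lie on 7 different chromosomes of GRCm38. Eif2ak1 spans chr5:143817788-143904251 on the plus strand, Eif2ak2 spans chr17:78852564-78882573 on the minus strand, Eif2ak3 spans chr6:70844515-70905245 on the plus strand and Eif2ak4 spans chr2:118388618-118475234 on the plus strand. Eif2s1 spans chr12:78861819-78887010, Eif2b5 spans chr16:20498817-20509323 and Ppp1r15b spans chr1:133131143-133139783, all on the plus strand. Reads in introns were counted, so a long gene has more places from which a nuclear read can come, and the 4 kinase genes range from 30.0 kb for Eif2ak2 to 86.6 kb for Eif2ak4. Shares of UMIs among the kinases are therefore also given per kb of gene span, and levels also per kb of the longest transcript. The order of the kinases depended on which length was used. Eif2ak1 overlaps Ankrd61 and Aimp2 on the opposite strand, and the counting used the sense strand.

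The sequences just upstream of the 2 kinase genes with the largest differences described below, Eif2ak2 between cell types and Eif2ak3 between genotypes, are shown to place them beside those values. Both are the 250 bases before the RefSeq transcript start (assembly GRCm38.p6), written 5′ to 3′ on the strand of the gene, with capitals marking each CCAAT box (CCAAT, or ATTGG on the other strand).
Eif2ak3, chr6:70844265-70844514, plus strand: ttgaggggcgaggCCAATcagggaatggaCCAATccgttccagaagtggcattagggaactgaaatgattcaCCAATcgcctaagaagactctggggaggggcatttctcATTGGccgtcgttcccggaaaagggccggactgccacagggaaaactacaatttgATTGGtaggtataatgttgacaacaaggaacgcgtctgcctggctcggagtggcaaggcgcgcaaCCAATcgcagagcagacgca
Eif2ak2, chr17:78882573-78882822, minus strand: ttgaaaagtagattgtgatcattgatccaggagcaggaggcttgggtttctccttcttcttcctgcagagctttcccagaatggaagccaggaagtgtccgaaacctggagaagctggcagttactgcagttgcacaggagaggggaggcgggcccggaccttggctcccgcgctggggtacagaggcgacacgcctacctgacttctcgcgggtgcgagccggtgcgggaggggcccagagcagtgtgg
The Eif2ak3 stretch held 6 CCAAT boxes, ending 232, 216, 173, 135, 80 and 15 bases before the start, and 19 of 32851 mouse promoters of the same length (0.0578%) held as many. At least 1 CCAAT box was found in 33.85% of all promoters, and Eif2ak1 and Eif2b5 had 1 each; this motif was added to the search after the Eif2ak3 sequence had been seen. Of the other 4 motifs searched on both strands, the interferon-stimulated response element was found upstream of Eif2s1 and in 2.98% of all promoters. The promoters of 6 of the 7 members were searched, Ppp1r15b not being among them, and none of the 6 held TGATGNAA (the ATF4 and C/EBP composite, 3.45% of promoters), TGACGTCA (the cAMP response element, 1.55%) or the ER stress element (0.113%), which itself contains a CCAAT box. These are matches of letters in this window and nothing more.

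The 8 libraries held 169193 barcodes and between 20025456 and 348080773 unique molecular identifiers (UMIs) each, and 3295 barcode sequences occurred in more than 1 library. Mitochondrial genes gave 1.57% (Taz-KO replicate 5301) to 23.7% (WT replicate 4909) of the UMIs, so the RNA was not from nuclei alone. After filtering and doublet removal, 151264 nuclei fell into 38 clusters, of which 17 could be named from marker genes. In every library but Taz-KO 4685 and 5301 all barcodes passed the filter, the lowest of each library having 2165 to 6522 UMIs. The authors kept fewer nuclei in total, after steps that also corrected for free RNA. How many of the barcodes kept here held free RNA alone was not tested. Cardiomyocyte-like nuclei (Ryr2, Ttn) numbered 27716, fibroblast-like nuclei (Pdgfra, Bicc1) 38213, endothelial-like nuclei (Ptprb, Flt1) 21389 and macrophage-like nuclei (F13a1, Mrc1) 12137; they are called cardiomyocytes, fibroblasts, endothelial cells and macrophages from here on, and 38739 nuclei stayed unnamed. The 10% of barcodes with the fewest UMIs in each library are called the lowest-UMI barcodes here. Typed one by one against the lowest-UMI barcodes, 26247 of these cardiomyocytes, 15656 fibroblasts, 13049 endothelial cells and 8015 macrophages kept their type. Most of the rest were then unnamed, and the fibroblasts of Taz-KO replicate 4685 numbered 38 in place of 361. The Taz-KO libraries 4685 and 5301 were small, with 3492 and 5571 barcodes against 21190 to 36308 in the others, so results are also given without them where that mattered. Cardiomyocyte marker genes made up 4.38 to 7.40% of the UMIs of cardiomyocytes, but also 0.348 to 1.95% in fibroblasts, 0.538 to 2.43% in endothelial cells and 0.446 to 2.35% in macrophages, so each sum of the other types held some RNA from cardiomyocytes. Taz itself was lower in every Taz-KO mouse than in every WT mouse in all 4 types, with 48.9 to 54.3 CPM (UMI counts scaled to a total of 1000000 in each mouse and cell type) in WT and 28.2 to 40.5 CPM in Taz-KO cardiomyocytes (log2 fold change -0.67 ± 0.17 SE, adjusted p = 0.0191, and 0.0570 with a free RNA share of 0.2 subtracted). The lowest-UMI barcodes, a stand-in for free RNA, had 28.8 to 39.7 CPM of Taz in WT and 5.57 to 18.7 CPM in Taz-KO libraries. The values of Taz-KO replicates 4685 (5.57 CPM) and 5301 (16.8 CPM) rested on 4 and 5 UMIs. In 5301 these barcodes had at most 616 UMIs and lay below the filter. In the other libraries they had at most 2487 to 7021 UMIs. Where all barcodes passed the filter, the lowest-UMI barcodes were themselves among those kept. Once free RNA scaled to the cardiomyocyte markers of each sum was subtracted, the genotypes overlapped in Taz outside cardiomyocytes, with 32.8 to 41.3 CPM in WT and 27.9 to 40.8 CPM in Taz-KO fibroblasts, so outside cardiomyocytes Taz does not check the labels apart from free RNA.

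Every one of the 7 genes had UMIs in every mouse in the 4 main cell types, and the kinase that varied most between cell types was Eif2ak2, the double-stranded RNA sensor. If all cardiomyocyte marker UMIs outside cardiomyocytes were free RNA, free RNA made up as much as 13.4 to 67.4% of the UMIs of fibroblasts, 20.7 to 80.1% of endothelial cells and 17.1 to 81.2% of macrophages. The lowest share in each type was that of Taz-KO replicate 5301, whose lowest-UMI barcodes lay below the filter. With these shares subtracted, Eif2s1 and Ppp1r15b were at 0 in the macrophages of Taz-KO replicate 4685. The mean of Eif2ak2 over the 8 mice rose from 18.8 CPM in cardiomyocytes through 47.4 CPM in fibroblasts and 68.4 CPM in endothelial cells to 94.3 CPM in macrophages. Eif2ak3, the sensor of the endoplasmic reticulum, was highest in fibroblasts. Eif2ak1 and Eif2ak4, the mitochondrial and amino acid sensors, differed least across the 4 types.

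**Figure D1:**
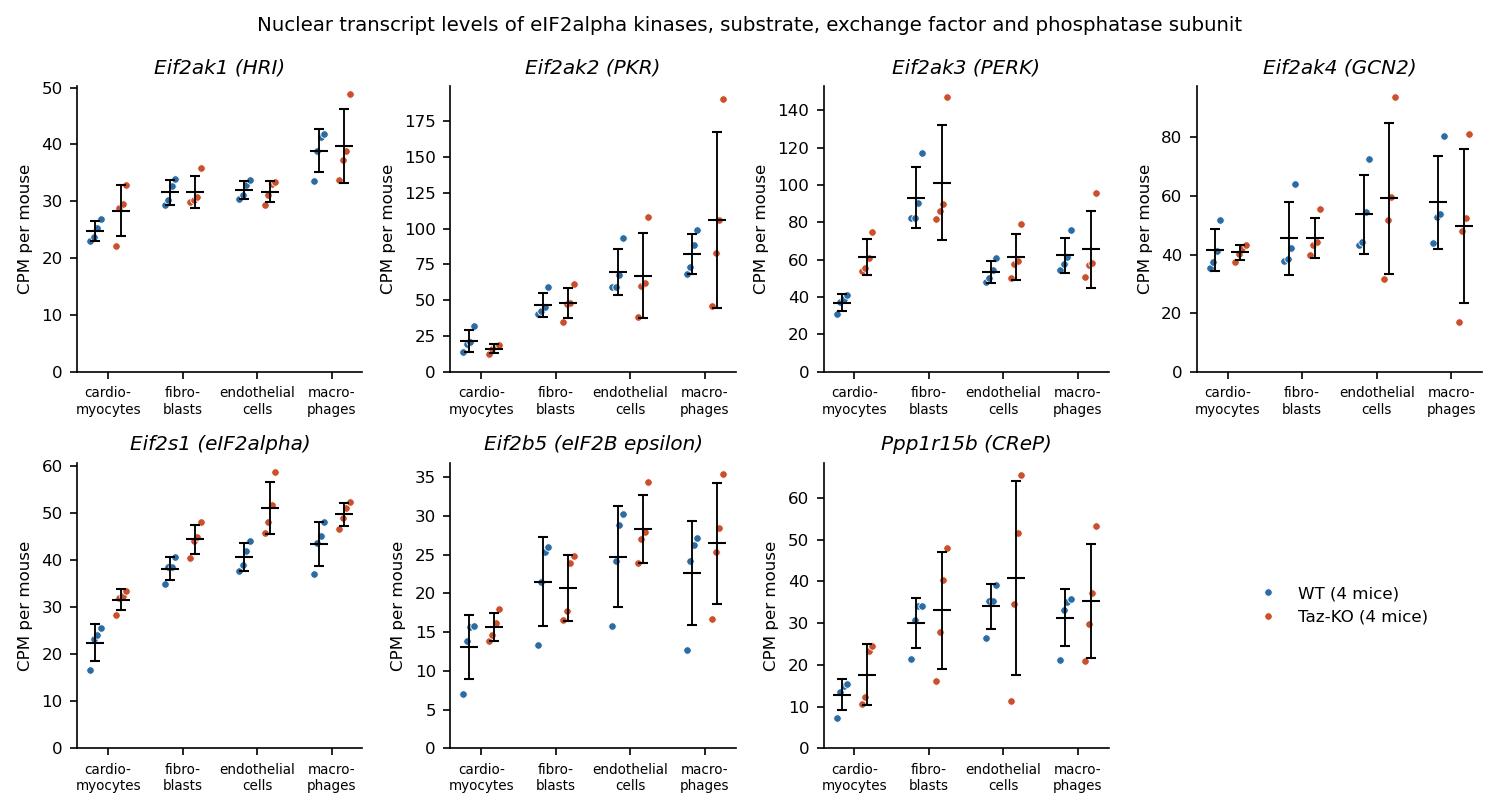
CPM of each of the 7 genes (y axis, linear from 0) in the 4 cell types (x axis), with 1 point for each of the 4 WT and 4 Taz-KO mice and bars for the mean and SD of each group. Eif2ak2 climbs from cardiomyocytes to macrophages, and Eif2ak3 of the 4 Taz-KO mice lies above that of the 4 WT mice in cardiomyocytes.

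For Eif2ak2, the 4 WT mice (4686, 4909, 5355 and 5356) had 14.1, 20.5, 19.5 and 31.9 CPM in cardiomyocytes and the 4 Taz-KO mice (4685, 4910, 5300 and 5301) had 17.9, 16.04, 18.6 and 12.1 CPM. In macrophages the same mice had 73.4, 68.3, 88.8 and 99.1 CPM and 45.6, 106, 83.1 and 191 CPM. No mouse had as much Eif2ak2 in its cardiomyocytes as in its fibroblasts, where values ran from 34.9 to 61.0 CPM, its endothelial cells, where they ran from 38.1 to 108 CPM, or its macrophages. In a fit of the 4 cell types with the mouse as a block, Eif2ak2 was higher than in cardiomyocytes by a log2 fold change of 0.96 ± 0.15 (SE) in fibroblasts (adjusted p = 1.3e-06), 1.45 ± 0.15 in endothelial cells (adjusted p = 1.0e-09) and 1.96 ± 0.15 in macrophages (adjusted p = 4.6e-12). The steps from fibroblasts to endothelial cells (0.49 ± 0.14, adjusted p = 0.0062) and from endothelial cells to macrophages (0.51 ± 0.15, adjusted p = 0.0060) also passed the test, although the step from endothelial cells to macrophages did not without Taz-KO replicate 4685 (adjusted p = 0.0628) or 5300 (adjusted p = 0.107), nor on the WT mice alone (0.15, adjusted p = 0.356), on the Taz-KO mice alone (0.63, adjusted p = 0.111) or with a free RNA share of 0.2 subtracted (adjusted p = 0.173). The step from fibroblasts to endothelial cells did not pass on the Taz-KO mice alone (adjusted p = 0.311). Neither step passed with at most 5% mitochondrial UMIs per nucleus (adjusted p = 0.124 and 0.245), but that setting left endothelial and macrophage sums of only Taz-KO replicates 4685 and 5301 and fibroblast sums of only these 2 mice and WT replicate 5356. The 3 differences from cardiomyocytes passed in all alternatives run.

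Interferon-stimulated genes, to which Eif2ak2 belongs by textbook knowledge, were read beside it: 16 of 18 listed genes were in the files, and all 16 passed the test as higher in each of the other 3 types than in cardiomyocytes, where 78.0%, 79.5% and 79.0% of all genes were called in either direction (median log2 fold changes 1.29 for fibroblasts, 1.88 for endothelial cells and 1.69 for macrophages). Over all genes tested, the medians of these 3 comparisons were 0.11, 0.09 and 0.16. The genes whose pattern over the 32 sums of 4 types and 8 mice was most like that of Eif2ak2 were Srgap2 (r = 0.971), Rnf213 (r = 0.965) and Ankrd44 (r = 0.965) among 10430 genes compared; the points share mice and libraries, and the value is a description.

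Eif2ak3 had 82.5 to 117 CPM in the fibroblasts of WT mice and 81.8 to 147 CPM in those of Taz-KO mice, the highest value coming from Taz-KO replicate 5301. Its WT values were 54.5, 48.2, 50.01 and 60.9 CPM in endothelial cells and 58.0, 54.4, 61.6 and 75.8 CPM in macrophages. Its Taz-KO values were 59.1, 57.8, 50.2 and 79.1 CPM in endothelial cells and 50.7, 57.4, 58.4 and 95.8 CPM in macrophages. Within every mouse, fibroblasts held more Eif2ak3 than endothelial cells or macrophages did. Fibroblasts exceeded cardiomyocytes by a log2 fold change of 0.63 ± 0.11 (adjusted p = 7.1e-06). Against fibroblasts, the log2 fold change was -0.75 ± 0.11 in endothelial cells (adjusted p = 1.9e-06) and -0.54 ± 0.11 in macrophages (adjusted p = 0.00018). The closest genes in pattern were Cep83 (r = 0.919), Uso1 (r = 0.899), a tether of vesicles to the Golgi, and Ubxn2b (r = 0.893), and lymphoid nuclei, a smaller group, had a mean Eif2ak3 level of 108.5 CPM.

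The position of cardiomyocytes in that order was also read within each genotype, in fits chosen after seeing the data. In the WT mice, mean Eif2ak3 levels were 37.1 CPM in cardiomyocytes, 53.4 in endothelial cells, 62.4 in macrophages and 93.2 in fibroblasts, and endothelial cells (0.20 ± 0.08, adjusted p = 0.0363), macrophages (0.32 ± 0.09, adjusted p = 0.0035) and fibroblasts (0.93 ± 0.08, adjusted p = 4.6e-08) were all higher than cardiomyocytes. In the Taz-KO mice, the means were 61.5 CPM in both cardiomyocytes and endothelial cells, 65.6 in macrophages and 101.2 in fibroblasts. There the fitted differences from cardiomyocytes were -0.44 ± 0.17 in endothelial cells (adjusted p = 0.0333), -0.39 ± 0.17 in macrophages (adjusted p = 0.0605) and 0.26 ± 0.17 in fibroblasts (adjusted p = 0.185), in a fit that uses TMM scaling, while the mean CPM of endothelial cells and macrophages was not lower. Over all 8 mice, endothelial cells (-0.12 ± 0.11) and macrophages (0.09 ± 0.11) did not pass the test against cardiomyocytes. Whether the genotype effect itself differed between the types is tested further on, and against endothelial cells that test did not pass (adjusted p = 0.117).

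Eif2ak1 and Eif2ak4 showed small differences between cell types. Eif2ak1 had means of 26.6, 31.6, 31.9 and 39.3 CPM in cardiomyocytes, fibroblasts, endothelial cells and macrophages, and macrophages were above the other 3 types (0.23 ± 0.07, 0.35 ± 0.07 and 0.33 ± 0.07 on the log2 scale against cardiomyocytes, fibroblasts and endothelial cells, adjusted p = 0.0042, 0.00018 and 0.00052). The difference from cardiomyocytes did not pass without WT replicate 5356 (0.04), Taz-KO replicate 4685 (0.11) or 5300 (0.17), and that from endothelial cells did not pass without 5300 (0.18, adjusted p = 0.0947). On the WT mice alone, macrophages passed against cardiomyocytes and fibroblasts but not against endothelial cells (0.18, adjusted p = 0.0508). On the Taz-KO mice alone they passed against none of the 3 types (adjusted p = 0.960, 0.268 and 0.336 against cardiomyocytes, fibroblasts and endothelial cells). Eif2ak4 had means of 41.1, 45.6, 56.4 and 53.8 CPM, and its called differences were those of endothelial cells (0.28 ± 0.11, adjusted p = 0.0391) and macrophages (0.31 ± 0.11, adjusted p = 0.0223) against fibroblasts. The first did not pass without WT replicate 4686, 5355 or 5356 or Taz-KO replicate 4910 or 5301 (adjusted p 0.0701 to 0.136), nor the second without WT replicate 4909, 5355 or 5356 or Taz-KO replicate 4910 or 5300 (adjusted p 0.0645 to 0.231). On the WT mice alone both passed (adjusted p = 0.0090 and 0.0099). There the fit also put fibroblasts below cardiomyocytes (-0.27 ± 0.08, adjusted p = 0.0093), though not in mean CPM (45.6 against 41.5). On the Taz-KO mice alone none of these differences passed (adjusted p = 0.421, 0.849 and 0.344). Against cardiomyocytes, the sign of Eif2ak1 and Eif2ak4 in fibroblasts and of Eif2ak1 and Eif2ak3 in endothelial cells turned when libraries were scaled by their totals, a choice that raised the median of all genes by about the size of these differences, from 0.11 to 0.47 in fibroblasts, from 0.09 to 0.45 in endothelial cells and from 0.16 to 0.46 in macrophages. The genes closest in pattern were Pold3 (r = 0.878), Slc26a11 (r = 0.877) and Secisbp2l (r = 0.876) for Eif2ak1, and Taf3 (r = 0.909), Tmem241 (r = 0.899) and Sppl3 (r = 0.898) for Eif2ak4.

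The substrate, the exchange factor subunit and the phosphatase subunit had lower levels in cardiomyocytes than in the other 3 types. For Eif2b5 the direction turned in all 3 comparisons with at most 5% mitochondrial UMIs (-0.48, -0.13 and -0.21 in fibroblasts, endothelial cells and macrophages, none called), where all sums outside cardiomyocytes but 1 came from Taz-KO replicates 4685 and 5301. Eif2s1 had means of 27.0 CPM in cardiomyocytes and 41.3, 45.9 and 46.5 CPM in fibroblasts, endothelial cells and macrophages, and the fitted differences were 0.28, 0.43 and 0.51 (each ± 0.06 to 0.07 SE, the largest adjusted p = 0.00022). Eif2b5 had means of 14.4, 21.1, 26.5 and 24.5 CPM, with differences of 0.25, 0.53 and 0.46, the first of which did not pass without WT replicate 5356 (0.16, adjusted p = 0.0814). Ppp1r15b had means of 15.2, 31.6, 37.4 and 33.3 CPM, with differences of 0.75, 0.99 and 0.91 and adjusted p of at most 7.6e-08. On the WT mice alone all these comparisons passed. On the Taz-KO mice alone, Eif2s1 did not pass in fibroblasts (0.098, adjusted p = 0.490) or macrophages (0.21, adjusted p = 0.152). Eif2b5 did not pass there either (0.046, adjusted p = 0.810, and 0.28, adjusted p = 0.149). Both passed in endothelial cells (adjusted p = 0.0492 and 0.0293), and Ppp1r15b passed in every type. The barcodes with the fewest UMIs, used as a stand-in for free RNA, had a mean of 41.6 CPM of Ppp1r15b, above its mean in any of the 4 cell types, and the part of free RNA in its pattern was not tested beyond the subtraction described with the alternative settings. With that subtraction scaled to the cardiomyocyte markers of each sum, Ppp1r15b no longer passed in macrophages (0.79, adjusted p = 0.0526), Eif2s1 passed in none of the 3 types (0.26, 0.61 and 0.47), and Eif2b5 was level in fibroblasts (-0.03).

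Read against all genes, these counts were not unusual. The number of the 7 genes called different from cardiomyocytes was 5 in fibroblasts (78.0% of all 17479 genes tested were called), 4 in endothelial cells (79.5%) and 5 in macrophages (79.0%), each time higher than in cardiomyocytes. Of all genes called, 7552 were higher and 6074 lower in fibroblasts, 7476 and 6427 in endothelial cells and 7810 and 5992 in macrophages, and with library size scaling the splits were 10213 and 4100, 9811 and 4468, and 9688 and 4447. Between the other types it was 5 for endothelial cells against fibroblasts (46.8%), 6 for macrophages against fibroblasts (53.2%) and 2 for macrophages against endothelial cells (41.1%).

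To ask which sensor a cell type transcribes most, each kinase was expressed as a share of the UMIs of all 4 kinases in the same mouse and cell type, which does not depend on library size. Cardiomyocytes held 19.8% Eif2ak1, 14.0% Eif2ak2, 35.7% Eif2ak3 and 30.5% Eif2ak4 (means of 8 mice). Which kinase came first there depended on genotype. In WT cardiomyocytes the mean was 33.1% for Eif2ak4 and 29.8% for Eif2ak3, with Eif2ak3 ahead only in replicate 5355 (32.7 against 31.3%). In Taz-KO cardiomyocytes it was 27.9% for Eif2ak4 and 41.7% for Eif2ak3. Fibroblasts held 14.6%, 21.4%, 43.5% and 20.5%, endothelial cells 15.4%, 31.4%, 27.3% and 25.8%, and macrophages 16.6%, 36.4%, 26.1% and 21.0%, in the same order. These shares of UMIs also carry the length of each gene. Per kb of gene span, Eif2ak2, the shortest of the 4 genes, took 52.9% in endothelial cells and 58.2% in macrophages and was close to Eif2ak3 in fibroblasts (38.8% and 39.1%), Eif2ak3 had the highest mean in cardiomyocytes with 36.2% over all 8 mice but not over the 4 WT mice (29.5%, against 33.5% for Eif2ak2), and Eif2ak1 was last in all 4 types, with 9.07 to 14.1%. Per kb of the longest transcript the order differed: in cardiomyocytes Eif2ak2 was last with 4.36 CPM per kb and Eif2ak3 first with 10.9, in fibroblasts Eif2ak3 was first with 21.5 against 10.99 for Eif2ak2, and Eif2ak2 was first in endothelial cells (15.9) and macrophages (21.9). All these values include free RNA. With free RNA scaled to cardiomyocyte markers subtracted, endothelial Eif2ak4 had a higher mean than Eif2ak3 (79.9 against 64.7 CPM in WT, 96.3 against 77.9 in Taz-KO mice). The Taz-KO mean of Eif2ak2 there was 89.4 CPM. In fibroblasts, CPM per kb of span was then 2.28 for Eif2ak3 against 1.75 for Eif2ak2 in WT, and 2.32 against 1.56 in Taz-KO mice.

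**Figure D2:**
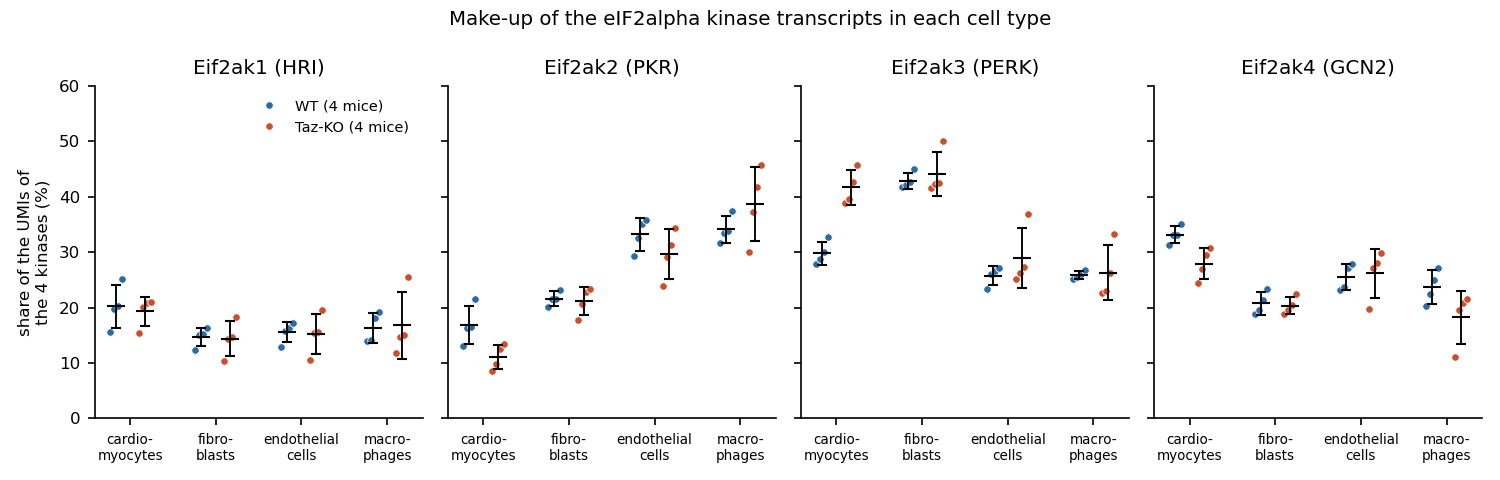
Share of each eIF2alpha kinase gene in the UMIs of the 4 kinases (y axis, percent of kinase UMIs) in the 4 cell types (x axis), with 1 panel per kinase, 1 point per mouse, and bars for the mean and SD of the 4 WT and of the 4 Taz-KO mice. In cardiomyocytes the Eif2ak3 share is 27.8 to 32.7% in WT and 38.9 to 45.7% in Taz-KO mice, and in the other 3 types the groups overlap for every kinase.

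The comparison of genotypes showed a higher level of the PERK gene Eif2ak3 in Taz-KO cardiomyocytes and no called difference of any member elsewhere. The WT mice (4686, 4909, 5355 and 5356) had 30.8, 37.4, 39.1 and 41.1 CPM of Eif2ak3 in cardiomyocytes, and the Taz-KO mice (4685, 4910, 5300 and 5301) had 61.1, 75.0, 54.0 and 55.7 CPM. All 4 Taz-KO mice lay above all 4 WT mice, the means being 37.1 ± 4.48 (SD, n = 4) and 61.5 ± 9.54 CPM. The values rested on 1435 to 2173 UMIs of Eif2ak3 per WT mouse and on 273 to 6395 per Taz-KO mouse. The log2 fold change was 0.62 ± 0.18 (SE) with an adjusted p of 0.0407 by the quasi-likelihood test of edgeR, so that Eif2ak3 was 1 of 7 members called, where 15.5% of the 18336 genes tested in cardiomyocytes were called (8.79% higher and 6.69% lower in Taz-KO).

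That call lay close to the threshold. The direction was the same in all 17 alternative settings (0.48 to 0.74), but the adjusted p rose above 0.05 without WT replicate 4686 (0.110), 4909 (0.144) or 5355 (0.110), without Taz-KO replicate 4685 (0.0607), 4910 (0.117) or 5301 (0.0557), and without 4685 and 5301 together (0.142), as it did with no filter on low counts (0.0753), with at most 5% mitochondrial UMIs per nucleus (0.0535, without WT replicate 4909, of which 7 cardiomyocytes were left) and with nuclei typed one by one (0.0540). Subtraction of a free RNA share of 0.2 kept it (0.74, adjusted p = 0.0495), and the lowest-UMI barcodes had 39.8 to 60.4 CPM of Eif2ak3 in WT and 39.0 to 70.5 CPM in Taz-KO libraries, which overlap.

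**Figure D3:**
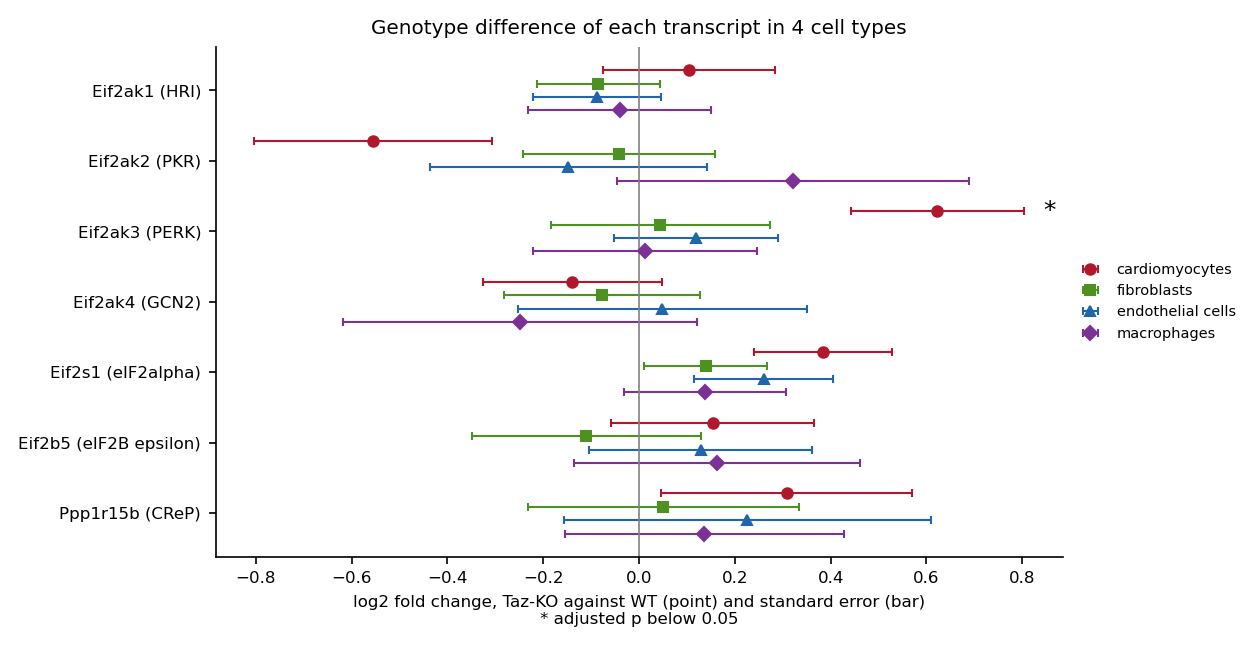
Log2 fold change of Taz-KO against WT mice (x axis, zero marked by a line) for the 7 genes (y axis) in the 4 cell types, with bars of 1 standard error and a star for an adjusted p below 0.05. Eif2ak3 in cardiomyocytes, at 0.62, has the 1 star.

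The difference was present in the clusters that made up most of the cardiomyocytes. In cluster 5, the largest, WT mice had 31.2 to 39.6 CPM of Eif2ak3 and Taz-KO mice 50.6 to 76.6 CPM. In cluster 6 the ranges were 28.2 to 39.5 and 48.3 to 73.7 CPM, and in cluster 13 they were 26.1 to 46.8 and 54.7 to 87.9 CPM. The groups did not overlap in these 3 clusters, and they overlapped in clusters 10, 19 and 24. Among these last clusters single mice had as few as 6 UMIs of the gene, but cluster 10, with 3626 nuclei, was larger than cluster 13. The mean log2 fold change of cardiomyocyte markers against all other clusters was 0.178 in cluster 13, where naming required 0.15. It was 0.463 to 0.729 in the other cardiomyocyte clusters. Clusters 13 and 19 came mostly from Taz-KO mice (2069 of 2497 and 1702 of 1791 nuclei). Among the marker lists, smooth muscle genes were 0.00190 to 0.00616% of cardiomyocyte UMIs in WT and 0.00768 to 0.0238% in Taz-KO mice, without overlap, and B lymphocyte genes were 0.00283 to 0.00385% and 0.00131 to 0.00228%, also without overlap, whereas fibroblast (0.203 to 0.406% and 0.0948 to 0.330%), endothelial and macrophage genes overlapped. Their part in the Eif2ak3 difference was not tested.

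**Figure D4:**
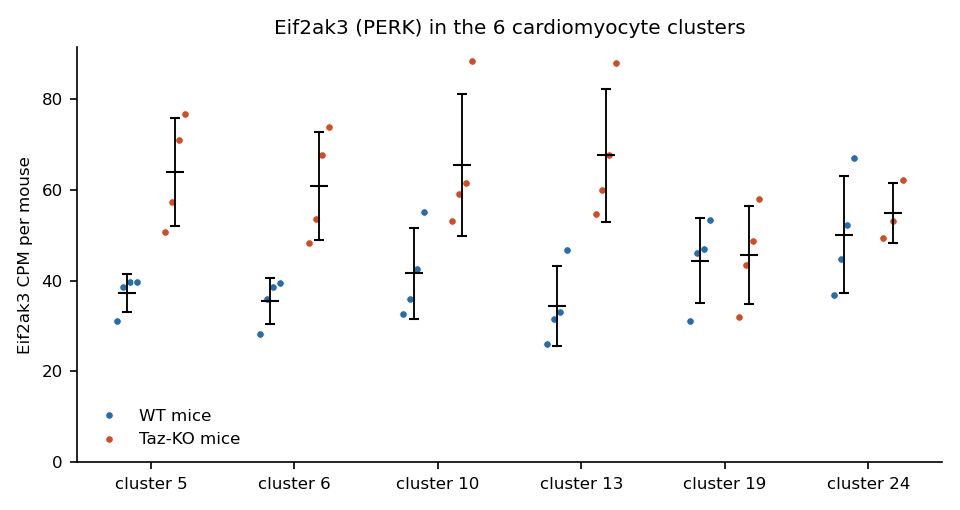
CPM of Eif2ak3 (y axis, linear from 0) in the 6 cardiomyocyte clusters (x axis), with 1 point per mouse (3 Taz-KO mice in cluster 24) and bars for the mean and SD of each group. Taz-KO points lie above all WT points in clusters 5, 6 and 13 and mix with them in clusters 10, 19 and 24.

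The change of Eif2ak3 was larger in cardiomyocytes than in fibroblasts and macrophages when the difference itself was tested. The effect in cardiomyocytes minus that in fibroblasts was 0.61 ± 0.17 on the log2 scale (adjusted p = 0.0302, with 6.19% of 18680 genes called), and minus that in macrophages it was 0.63 ± 0.18 (adjusted p = 0.0461, 3.47% called). Against endothelial cells it was 0.50 ± 0.17 (adjusted p = 0.117, 4.20% called). None of the other 6 members passed in any of the 3 tests. Both calls were lost when any 1 mouse other than Taz-KO replicate 5301 was left out (adjusted p 0.0632 to 0.228 for fibroblasts and 0.109 to 0.280 for macrophages), and without 5301 all 3 differences passed (adjusted p = 0.0010, 0.0048 and 0.0167 for fibroblasts, macrophages and endothelial cells).

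Eif2s1, the substrate of the kinases, was the second member whose cardiomyocyte values did not overlap. It had 24.1, 23.3, 25.6 and 16.7 CPM in WT and 32.03, 32.4, 33.3 and 28.3 CPM in Taz-KO mice, but the log2 fold change of 0.38 ± 0.14 did not pass the adjustment (adjusted p = 0.102, unadjusted p = 0.0222). Thus 2 of the 7 members had ranges that did not overlap in cardiomyocytes, where 23.2% of genes with at least 200 UMIs did so. Eif2s1 was also without overlap in endothelial cells, with 37.7 to 44.1 CPM in WT and 45.8 to 58.6 CPM in Taz-KO mice (0.26 ± 0.14, adjusted p = 0.779), as 4.22% of genes were there. Once free RNA scaled to cardiomyocyte markers was subtracted, these endothelial values overlapped (37.4 to 49.3 and 44.9 to 69.7 CPM). No member was without overlap in fibroblasts (5.75% of genes) or macrophages (3.66%).

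The other 3 kinases gave no called difference in cardiomyocytes. Eif2ak2 went the other way from Eif2ak3, at -0.56 ± 0.25 (adjusted p = 0.168), and that value moved to -0.25 without WT replicate 5356, the mouse with the highest level. Eif2ak1 had 23.1 to 26.9 CPM in WT and 22.2 to 32.9 CPM in Taz-KO mice (0.10 ± 0.18, adjusted p = 0.775). Eif2ak4 had 35.6 to 51.7 and 37.3 to 43.2 CPM (-0.14 ± 0.19, adjusted p = 0.702). Neither the exchange factor subunit Eif2b5 (0.15 ± 0.21, adjusted p = 0.712) nor the phosphatase subunit Ppp1r15b (0.31 ± 0.26, adjusted p = 0.506) passed, and for Ppp1r15b the Taz-KO values were 24.4, 12.2, 23.4 and 10.6 CPM, of which the first and the third lay above the WT range of 7.35 to 15.4 CPM and the other two within it.

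Of 2-fold changes planted as a test, the genotype comparison recovered 9% (cardiomyocytes), 11.5% (fibroblasts), 0% (endothelial cells) and 1% (macrophages). Of planted 4-fold changes it recovered 85.5%, 81.5%, 79% and 82.5%, in the same order. A lack of calls therefore says little about changes of 2-fold or less in any of these 4 types, cardiomyocytes included. Outside cardiomyocytes the fitted changes of the 7 genes were small. They ran from -0.11 to 0.14 in fibroblasts (adjusted p 0.887 to 0.999, with 0.406% of all genes called), from -0.15 to 0.26 in endothelial cells (0.779 to 0.9997, with 0.428% called) and from -0.25 to 0.32 in macrophages (0.999 for each, with 0.249% called). Pericytes (0.118% of genes called), lymphatic endothelial cells (0.0961%), mesothelial cells (0.0568%), adipocytes (0.00%, with 596 genes below 0.05 before adjustment) and lymphoid cells (0.150%) likewise had 0 of 7 members called. In lymphoid cells Eif2s1 had 43.8 to 49.2 CPM in WT and 60.2 to 77.0 CPM in Taz-KO mice (0.43 ± 0.18, adjusted p = 0.581), a lack of overlap that 4.72% of genes showed there. In adipocytes Eif2ak4 had 46.9 to 66.7 CPM in 4 WT and 39.0 to 45.0 CPM in 3 Taz-KO mice (-0.44 ± 0.26, adjusted p = 0.825), as 7.91% of genes had no overlap there. In mesothelial cells Eif2ak3 had 49.9 to 68.6 CPM in WT and 63.9 to 110 CPM in Taz-KO mice (0.45 ± 0.23, adjusted p = 0.779), which overlap. The ranges were 57.1 to 72.2 and 74.6 to 119 CPM once free RNA scaled to cardiomyocyte markers was subtracted, a scale for which no share over all genes is given.

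As a share of the kinase UMIs, Eif2ak3 went from 29.8% ± 2.12 (SD, n = 4) in WT to 41.7% ± 3.10 in Taz-KO cardiomyocytes (exact two-sided permutation test, p = 0.0286, the smallest that 4 mice against 4 can give). Eif2ak4 had 33.1% ± 1.52 in WT and 27.9% ± 2.78 in Taz-KO cardiomyocytes, also without overlap (exact permutation p = 0.0286). The 4 shares sum to 100%, so a higher share of one kinase lowers the others, and the Eif2ak4 level itself was not called different (35.6 to 51.7 and 37.3 to 43.2 CPM, adjusted p = 0.702). Eif2ak2 had 16.9% ± 3.50 and 11.1% ± 2.25 (exact permutation p = 0.0571), and Eif2ak1 had 20.2% ± 3.87 and 19.3% ± 2.62 (exact permutation p = 0.914). After adjustment over the 16 tests of 4 kinases in 4 types none passed (adjusted exact permutation p = 0.229 for the first 2), and 2 of 16 had an unadjusted p below 0.05. With 4 mice a group an adjusted p below 0.05 needs most of the 16 shares at the smallest p, so the absence of a call carries no information here. Per kb of gene span, Eif2ak2 and Eif2ak3 took 33.5% and 29.5% of the kinase signal in WT cardiomyocytes and 23.0% and 42.9% in Taz-KO cardiomyocytes, so on this scale Eif2ak3 came first in each of the 4 Taz-KO mice. In WT the order of the 2 kinases varied between mice, with 27.6, 33.1, 32.4 and 40.8% Eif2ak2 and 29.9, 29.8, 32.2 and 26.0% Eif2ak3 in 4686, 4909, 5355 and 5356. Per kb of the longest transcript, Eif2ak3 had the higher mean in both genotypes, with 8.22 against 4.98 CPM per kb in WT and 13.6 against 3.75 in Taz-KO cardiomyocytes.

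Around the 7 genes, the partners of the switch were read from lists of its other components, given here as counts beside the 15.5% of genes called in cardiomyocytes. Of 7 further subunits of eIF2 and eIF2B, 2 rose in Taz-KO cardiomyocytes and none fell: Eif2s2, the beta subunit of eIF2, from 50.8 ± 13.7 to 176 ± 30.6 CPM (SD, n = 4; log2 fold change 1.68, adjusted p = 0.00038), and Eif2b3, the gamma subunit of eIF2B, from 30.8 ± 3.90 to 52.1 ± 6.45 CPM (0.64, adjusted p = 0.0082). The median of these 7 genes was 0.13, against 0.0053 over all genes tested. Of the 4 genes for removing the phosphate, the inducible phosphatase subunit Ppp1r15a rose from 9.75 ± 2.39 to 20.3 ± 6.33 CPM (0.92, adjusted p = 0.0299), and none of the 3 catalytic subunit genes of protein phosphatase 1 was called (list median -0.02). Of 8 factors that work with eIF2 at the start codon, Eif5, the GTPase-activating protein of eIF2, rose from 66.7 ± 11.9 to 110 ± 17.9 CPM (0.60, adjusted p = 0.0231) and Eif1a from 8.84 ± 2.04 to 17.1 ± 2.88 CPM (0.83, adjusted p = 0.0083), with a list median of 0.35. Eif2s2, Eif2b3 and Eif1a passed in all 17 alternatives, Ppp1r15a did not without WT replicate 4686, 4909 or 5355 or Taz-KO replicate 4685 or 5301 (adjusted p 0.0555 to 0.0824), and Eif5 did not without WT replicate 4909 or 5356 or Taz-KO replicate 4910 or 5300 (adjusted p 0.0535 to 0.0628).

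Of 11 activators and inhibitors of the kinases, 1 was called and it fell: Dele1, which carries mitochondrial stress to HRI, went from 40.7 ± 5.67 to 27.3 ± 1.96 CPM in cardiomyocytes (-0.67, adjusted p = 0.0115; list median -0.03). The protease gene Oma1, which cleaves Dele1 (0.08, adjusted p = 0.831), the GCN2 activator gene Gcn1 (0.03, adjusted p = 0.946) and the PERK-binding chaperone gene Hspa5 (-0.60, adjusted p = 0.306) were not called. Of 15 transcripts known to rise once eIF2alpha is phosphorylated, 11 rose and none fell in cardiomyocytes (median 2.39), among them Asns (5.73, adjusted p = 2.6e-05), Trib3 (5.57, adjusted p = 2.2e-06), Sesn2 (3.49, adjusted p = 1.3e-06) and Cebpg (2.15, adjusted p = 1.4e-05), while Atf4 itself did not pass (0.62, adjusted p = 0.164). Earlier results of these data had already shown this response, so the list is no independent support. The 16 interferon-stimulated genes tested had a median of 0.01 in cardiomyocytes.

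In the other types only the downstream transcripts had called members. Asns, Trib3 and Chac1, a glutathione-degrading enzyme, rose in fibroblasts (3.80, 1.81 and 4.50 on the log2 scale), endothelial cells (3.34, 2.07 and 3.96) and macrophages (5.10, 2.98 and 3.96), and Sesn2 and Phgdh also rose in endothelial cells (1.71 and 3.19). The median of the 15 transcripts was 1.03, 1.59 and 1.70 in these 3 types, against 0.0038, 0.015 and 0.026 over all genes. No gene of the subunit, dephosphorylation, start codon, kinase regulator or interferon lists passed in these 3 types. These 11 calls were all lost without WT replicate 4686 or 5355, with the direction kept. The rise was smaller than in cardiomyocytes for Trib3 in all 3 types (by 3.75, 3.57 and 2.60) and for Asns in fibroblasts and endothelial cells (by 2.05 and 2.55), whereas for Chac1 the differences of -0.48, 0.17 and 0.19 did not pass (adjusted p = 0.546, 0.892 and 0.911). With free RNA scaled to the cardiomyocyte markers of each sum subtracted, Trib3 was lower in Taz-KO than in WT mice in fibroblasts (-1.06) and endothelial cells (-0.40), and Asns was at 0.64 in endothelial cells, none of them called. In endothelial cells mean Sesn2 was then also lower in Taz-KO mice (0.978 against 2.70 CPM in WT, 3 Taz-KO mice at 0), and mean Phgdh was higher (4.23 against 0.661). Means stayed higher in Taz-KO mice for fibroblast Asns (1.46 against 0.403 CPM). The same held for macrophage Trib3 (3.61 against 1.21) and Asns (15.1 against 0), each with 2 Taz-KO mice at 0. Few UMIs of Chac1 were then left, with means of 0.120 and 1.52 CPM in WT and Taz-KO fibroblasts, 0.861 and 5.79 CPM in endothelial cells and 1.16 and 16.1 CPM in macrophages, and at least 1 Taz-KO mouse was at 0 in each type. The part of free RNA in these genes was not tested further. With that subtraction, edgeR called 0 genes of the whole table in each of the 3 types (1148, 327 and 260 genes had p below 0.05 before adjustment).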

How the data were processed

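Nuclei from frozen whole hearts of 8 mice were sequenced with 10x Genomics 3′ chemistry. The authors aligned reads, introns included, to mm10 with Cell Ranger 6.0.1 and the deposited values are raw counts of UMIs for each gene in each barcode. Kept were barcodes that had 800 or more UMIs and 250 or more genes, mitochondrial genes not counted in either. The barcodes with most simulated doublets among their neighbours (0.8% per 1000 nuclei, at most 10%) were removed. Libraries were integrated with a Harmony-type correction and clustered (15 components, 20 neighbours, Leiden resolution 0.9). Clusters were named from fixed marker lists. For each mouse and type the counts of non-mitochondrial genes were added up, and CPM scales such a sum to 1000000. Genotypes were compared with edgeR 4.0.16 (TMM, filterByExpr, quasi-likelihood test, Benjamini-Hochberg over all genes, called below an adjusted p of 0.05). Cell types, and differences of the genotype effect between them, were compared in fits with the mouse as a block. SE is the log2 fold change divided by the square root of F. Kinase shares used exact permutation tests over 70 groupings. Alternatives were DESeq2 1.42.0, total-count scaling, no filter, leaving out mice, subtraction of free RNA, a mitochondrial limit of 5%, kept doublets, resolution 0.5 and typing of single nuclei; fits on 1 genotype alone were added after seeing the data. The scripts were tested on simulated data. The 7 members, the component lists and the rules for naming genes were chosen with earlier results of these data known. Named genes are the members, Taz, genes of the lists called in 1 of the 4 main cell types and the 3 genes closest in pattern to each kinase (Pearson r of log2(CPM + 1)); Atf4, Oma1, Gcn1 and Hspa5 were named after their values were seen. The labels do not tie samples to separate litters or days, so p-values measure the spread between these mice. Promoter sequences came from RefSeq, where 6 of the 7 members matched, and gene spans from GENCODE vM21. One item of the interferon-stimulated list is not reported here, so no count of called genes is given for that list in cardiomyocytes.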

Additional observations from a re-analysis of the deposited data

Results flagged for a closer look

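A sample far from the other 3 of its group was found in 3 of 56 groups of 4 mice examined (7 genes, 4 cell types and both genotypes), where chance flags about 1 in 20. All 3 were in fibroblasts. WT replicate 5356 had 63.953 CPM of Eif2ak4 against 37.8 to 42.1 CPM in the other WT mice. Taz-KO replicate 4685 had 35.795 CPM of Eif2ak1 against 29.9 to 30.7 CPM in the other Taz-KO mice. Taz-KO replicate 5301 had 147.21 CPM of Eif2ak3 against 81.8 to 89.9 CPM, and this library was 1 of the 2 small ones. The genotype effect on Eif2ak3 differed between cell types by a test of the difference itself, being larger in cardiomyocytes than in fibroblasts by 0.60563 and than in macrophages by 0.6322 on the log2 scale. The difference from endothelial cells, 0.50, did not pass (adjusted p = 0.117, edgeR), and both calls were lost when any 1 mouse other than Taz-KO replicate 5301 was left out.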

How the results depend on the processing

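No paired analysis was possible because the groups share no replicate numbers in the labels. The depth of Taz-KO replicates 4685 and 5301, free RNA in the smaller sums and 4 mice a group limit what could be detected; causes of the shifts below were not tested, except that at most 5% mitochondrial UMIs left fibroblast sums of WT replicate 5356 and Taz-KO replicates 4685 and 5301 alone, endothelial and macrophage sums of these 2 Taz-KO mice alone, and no cardiomyocyte sum of WT replicate 4909. Its fibroblast genotype values thus set 1 WT mouse, assumed to vary like the others, against 2, and its values between cell types rest mostly on Taz-KO mice. Leaving out 1 mouse at a time gave 1888 to 2638 genes called between genotypes in cardiomyocytes, 11 to 170 in fibroblasts, 13 to 170 in endothelial cells and 2 to 130 in macrophages. It gave 12850 to 14115, 13174 to 14380 and 12933 to 14208 genes called in fibroblasts, endothelial cells and macrophages against cardiomyocytes, 655 to 1601, 372 to 1336 and 332 to 1188 for the differing genotype effects, and 0 kinase shares, which no setting could have called unless most of the 16 shares were at the smallest p, so this count says nothing about stability. Genes called between genotypes in fibroblasts, endothelial cells and macrophages were 361, 290 and 142 with DESeq2, 117, 117 and 111 without Taz-KO replicates 4685 and 5301, 0, 9 and 0 with a free RNA share of 0.2 subtracted, 0, 0 and 0 with that share scaled to cardiomyocyte markers, and 23, 104 and 151 with nuclei typed one by one. They were 37 in fibroblasts with at most 5% mitochondrial UMIs, and 96 and 66 in macrophages with no filter and with doublets kept. The differing genotype effects were 1750 (fibroblasts) and 1073 (macrophages) without 4685 and 5301, and 622 (fibroblasts) and 432 (endothelial cells) with a share of 0.2. Against cardiomyocytes, 8258 (fibroblasts) and 8472 (endothelial cells) were called with the scaled share, and 5505, 4386 and 4577 with at most 5% mitochondrial UMIs. In all comparisons with cardiomyocytes under the scaled share, the cardiomyocyte sums had a fixed share of 0.2 subtracted.

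Signs turned for small member effects, some of them called, and for the called and larger differences of Eif2b5 from cardiomyocytes. With the scaled share they also turned for Trib3 between genotypes in fibroblasts (-1.06) and endothelial cells (-0.40). Between genotypes in fibroblasts the turned member values were Eif2ak3 -0.15 and Eif2b5 0.0991 without 4685 and 5301, Eif2b5 0.077 and Ppp1r15b -0.16 with the scaled share, Eif2ak1 0.29, Eif2ak3 -0.33, Eif2ak4 0.80, Eif2s1 -0.73 and Ppp1r15b -0.28 with at most 5% mitochondrial UMIs (WT replicate 5356 alone against Taz-KO replicates 4685 and 5301), Eif2ak2 0.20, Eif2ak4 0.0154 and Ppp1r15b -0.0663 with nuclei typed one by one, and Eif2ak2 0.0313 with library size scaling. In endothelial cells they were Eif2ak3 -0.0489 and Eif2ak4 -0.00911 without 4685 and 5301, and Eif2ak1 0.0612 with the scaled share. In macrophages, Eif2ak3 was -0.17 without 4685 and 5301, -0.0569 with a share of 0.2, -0.16 with the scaled share, -0.10 one by one, -0.0462 with no filter and -0.13 with doublets kept, Eif2ak1 was 0.0092 with the scaled share, 0.0015 with doublets kept and 0.0154 with library size scaling, and Eif2s1 and Ppp1r15b were -0.24 and -0.0282 with the scaled share. Against cardiomyocytes, library size scaling gave Eif2ak1 0.24 and Eif2ak4 0.12 in fibroblasts and Eif2ak1 0.26 and Eif2ak3 0.23 in endothelial cells. DESeq2 gave Eif2ak4 -0.0073 in endothelial cells and Eif2ak3 -0.0386 and Eif2ak4 -0.0454 in macrophages, a share of 0.2 gave -0.018 and -0.0753 for the same 2 genes in macrophages, and the scaled share gave Eif2b5 -0.028 in fibroblasts and Eif2ak1 0.0447 and Eif2ak3 0.0573 in endothelial cells. At most 5% mitochondrial UMIs gave Eif2b5 -0.48, -0.13 and -0.21 in fibroblasts, endothelial cells and macrophages, Eif2ak4 -0.17 in macrophages, and -0.00019 for Eif2ak4 in macrophages against fibroblasts. The fits on 1 genotype, chosen after seeing the data, gave Eif2ak1 0.0506 and Eif2ak3 0.20 in endothelial cells on WT mice, and Eif2ak1 -0.01002, Eif2ak3 -0.39 and Eif2ak4 -0.18 in macrophages on Taz-KO mice.

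With 1 mouse left out, the genotype effect of Eif2ak1, Eif2ak4 and Eif2b5 in cardiomyocytes ran from -0.0062 to 0.23, -0.23 to 0.0186 and -0.0446 to 0.22. That of Eif2ak2, Eif2ak3, Eif2ak4 and Ppp1r15b in fibroblasts ran from -0.19 to 0.0824, -0.22 to 0.14, -0.21 to 0.0995 and -0.18 to 0.24. That of Eif2ak2, Eif2ak3, Eif2ak4, Eif2b5 and Ppp1r15b in endothelial cells ran from -0.44 to 0.0326, -0.0147 to 0.21, -0.22 to 0.24, -0.0384 to 0.23 and -0.0516 to 0.47. That of Eif2ak1, Eif2ak2, Eif2ak3, Eif2b5 and Ppp1r15b in macrophages ran from -0.19 to 0.0521, -0.10 to 0.54, -0.24 to 0.11, -0.0474 to 0.27 and -0.15 to 0.27. Against cardiomyocytes, Eif2ak4 in endothelial cells ran from -0.0156 to 0.19, and Eif2ak3 and Eif2ak4 in macrophages from -0.12 to 0.22 and -0.10 to 0.0855.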
